A study of Mus musculus with 6 samples.

Results

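The genes described here encode S100 proteins, a family of small calcium-binding proteins. They are 10 genes of the 55357 in the deposited table of normalized read counts, taken by gene name (S100a1, S100a4, S100a6, S100a8, S100a9, S100a10, S100a11, S100a13, S100a16 and S100b), with no threshold on their values. RNA was sequenced from cultured mouse cortical astrocytes prepared from late-gestation C57BL/6 embryos. The KE group (n = 3) received a plasmid in which the CMV promoter drives FLAG-tagged BRAF KE, the constitutively active K499E form of the kinase, and the NT group (n = 3) was not transfected. All 6 samples were collected at 48 h. There was no group given an empty plasmid, so BRAF KE and the transfection itself cannot be told apart, and the plasmid may enter any cell of the culture. The comparison asked how the transcriptome of astrocytes differed when mutant BRAF was expressed. The labels give no separate animals or cultures for the replicates, so p-values measure the spread between these samples, which may be technical.

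S100 proteins carry a pair of EF-hand loops, and most work as dimers that open on binding calcium and then dock onto partner proteins such as annexins, myosin or enzymes. Some are released from cells and act on surface receptors, with RAGE (Ager) and TLR4 (Tlr4) the best known. S100b is widely used as an astrocyte marker in brain, S100a6 and S100a10 are found in many dividing and stimulated cells, and S100a8 and S100a9 form calprotectin, a major product of neutrophils and other myeloid cells.

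The libraries were checked first. Braf was listed at 35025, 34933 and 40978 normalized counts in the KE samples and at 925, 811 and 946 in NT, a log2 fold change (log2FC, KE minus NT) of 5.37 (SE 0.08), so the labels held. The log2 values correlated at r = 0.989 to 0.991 within groups and at 0.944 to 0.950 between them, across genes, which are not independent replicates. The approximate depth ran from 24500000 to 34200000 reads, and KE replicate 2 was the shallowest. Among astrocyte transcripts, Aqp4, a water channel, was abundant in every sample and averaged 10973 in KE and 10809 in NT. The astrocyte list was not level between the groups, with summed levels of 220743 to 228283 in KE and 161147 to 171230 in NT. Of its 13 tested genes 9 rose and 2 fell, beside 25.3% of all genes called higher and 26.0% called lower. Transcripts of microglia and macrophages were also present and were lower in KE for 18 of 18 genes listed (median log2FC -3.28), beside 26.0% of all genes called lower. Their summed levels were 7010 to 9675 in KE and 59303 to 73889 in NT. Of 7 tested neuronal genes 2 rose and 2 fell, where 51.3% of all genes tested were called, and the 1 tested ependymal gene, Foxj1, did not pass. In these bulk samples, fewer cells of a type and less RNA per cell cannot be told apart.

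A pair of S100 genes was higher in KE and 1 was lower. S100a6 and S100a10 rose by 0.87 and 0.74 on the log2 scale, and S100a4 fell by 0.76, each with no overlap between the groups. The 5 other genes tested, S100a1, S100a11, S100a13, S100a16 and S100b, did not pass the test, S100a8 was too low to be tested and S100a9 was listed at 0 in all 6 samples. Thus 8 of the 10 genes passed the filter on low values (a mean of at least 10 normalized counts) and 3 of the 8 were called (limma, Benjamini-Hochberg adjusted p under 0.05), where 51.3% of all 15280 genes tested were called. The 2 called higher stand beside 25.3% of all genes called higher, and the 1 called lower beside 26.0% called lower. The groups did not overlap for 3 of the 8, against 59.9% of all genes tested. The median log2FC of the 8 was 0.08 and that of all genes tested was 0.0018. The family as a set therefore held no larger share of called genes than the table at large, and what follows describes its members one by one.

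**Figure D1:**
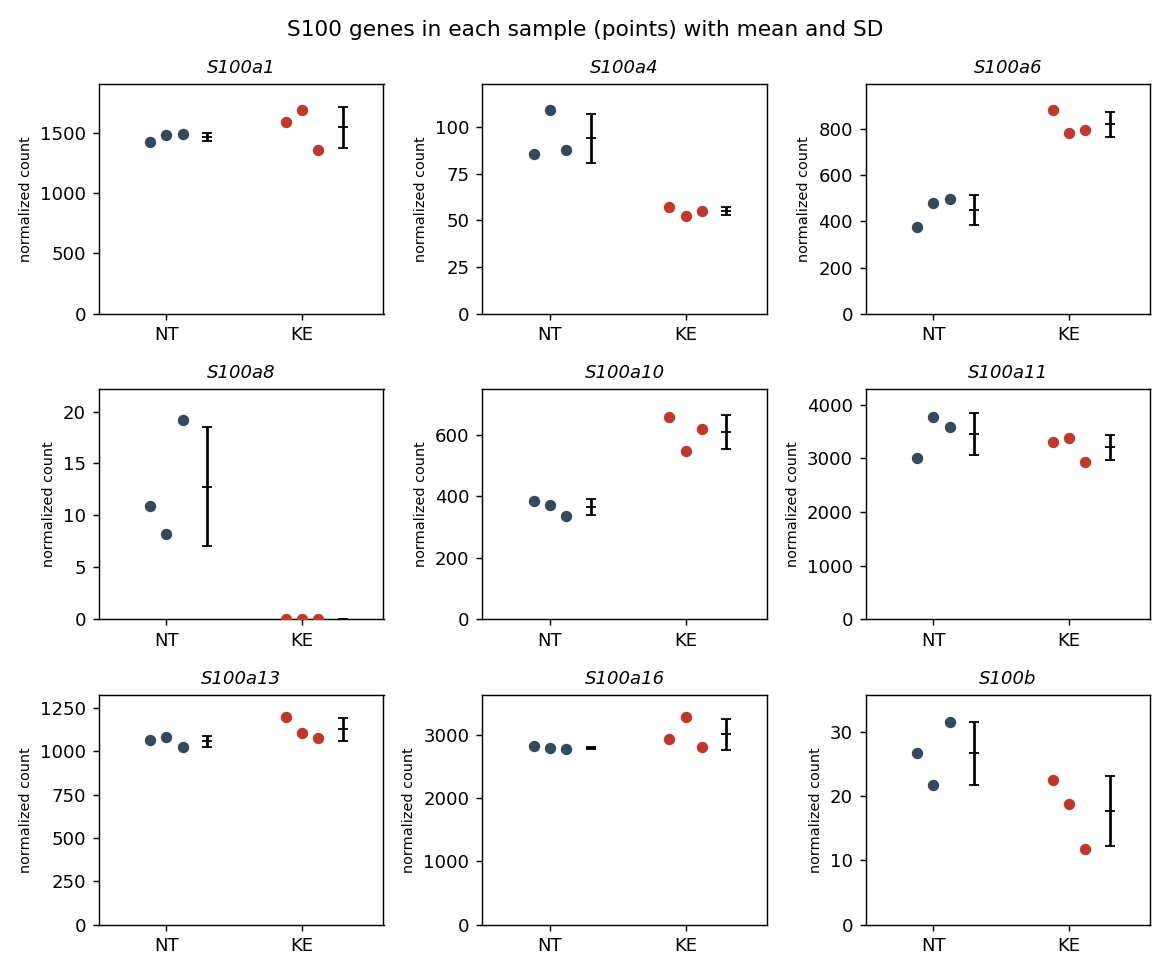
Normalized read counts (y axes, linear, from 0) of 9 S100 genes in each NT and KE sample (points), with the group mean and SD (n = 3) beside them. For S100a6 and S100a10 the 3 KE samples lie above the 3 NT samples, for S100a4 and S100a8 they lie below, and for the others the groups overlap. S100a9, listed at 0 throughout, is not drawn.

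S100a6 (ENSMUSG00000001025), also called calcyclin, is a calcium sensor of dividing cells that binds annexins and the ubiquitin ligase adaptor Cacybp. It was listed at 882, 784 and 799 normalized counts in KE replicates 1 to 3 and at 376, 481 and 496 in NT. Every KE sample was well above every NT sample, and NT replicate 1 was the lowest of all. The group means were 822 ± 53.0 and 451 ± 65.8 (SD, n = 3), a ratio of 1.82. The log2FC was 0.87 (SE 0.11, 95% interval 0.63 to 1.12, limma Benjamini-Hochberg adjusted p = 7.06e-05).

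Of the partners of S100a6, the annexins Anxa2 and Anxa6 rose (values below) and 3 others did not pass. Cacybp had a log2FC of -0.11 (SE 0.06, limma adjusted p = 0.131), and Sugt1, a chaperone adaptor that S100a6 also binds, one of 0.04 (SE 0.08, limma adjusted p = 0.738). Anxa11, an annexin bound by S100a6, had 0.05 (SE 0.07, limma adjusted p = 0.6). Cacybp was lower and Anxa11 higher in all KE samples than in any NT sample, as 59.9% of all genes tested did not overlap, and neither was called.

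S100a10 (ENSMUSG00000041959), or p11, differs from its relatives in having lost calcium binding and in being held permanently in the open form. It pairs with annexin A2 (Anxa2) at the plasma membrane, where the complex anchors channels and receptors and brings plasminogen together with its activator. It was listed at 658, 548 and 620 normalized counts in KE and at 384, 373 and 334 in NT. The lowest KE sample, replicate 2, was clearly above the highest NT sample. The means were 609 ± 55.8 and 364 ± 26.0 (SD, n = 3), a ratio of 1.67. The log2FC was 0.74 (SE 0.10, 95% interval 0.52 to 0.96, limma adjusted p = 0.000108).

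Anxa2 itself moved less. Its normalized counts were 10179, 9925 and 9592 in KE and 8341, 8451 and 8915 in NT, so the groups did not overlap here either. The log2FC was 0.21 (SE 0.05, 95% interval 0.09 to 0.33, limma adjusted p = 0.00767). The ratio of S100a10 to Anxa2 normalized counts was 0.0647, 0.0553 and 0.0647 in KE and 0.0461, 0.0441 and 0.0375 in NT. Each KE ratio was above each NT ratio, with means of 0.0615 ± 0.00543 and 0.0426 ± 0.00448 (SD, n = 3). An exact permutation test of the ratio, two-sided, gave p = 0.1, the smallest value that 3 samples against 3 can reach.

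**Figure D2:**
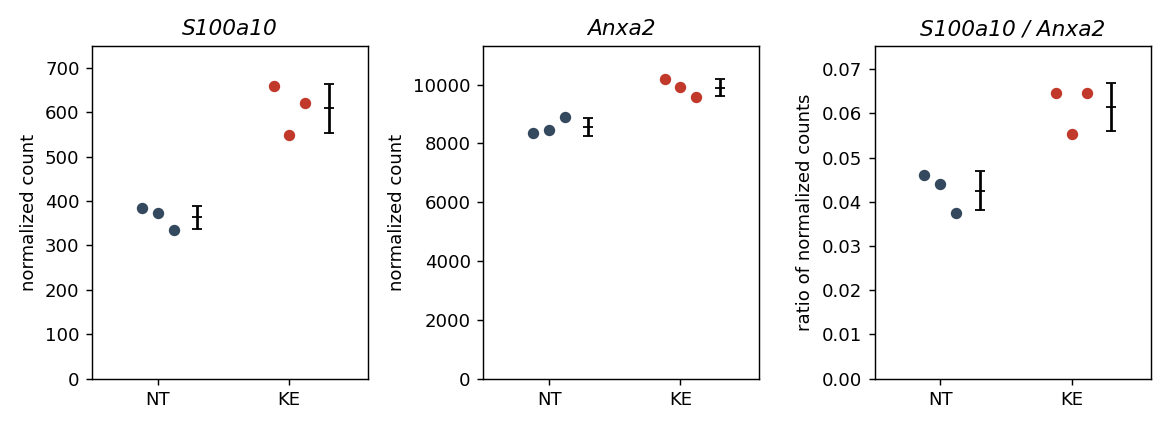
S100a10, Anxa2 (normalized counts) and their ratio (y axes, linear, from 0) in each NT and KE sample (points), with mean and SD (n = 3). All 3 quantities are higher in every KE sample than in any NT sample. The ratio of the KE to the NT mean is larger for S100a10 (364 to 609, ratio 1.67) than for Anxa2 (8569 to 9899, ratio 1.16).

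Proteins that the S100a10 complex carries or serves gave mixed values. Htr1b, a serotonin receptor brought to the surface by p11, was at 11, 32.4 and 19.3 in KE and 54.7, 38.6 and 51.6 in NT, and fell by 1.28 on the log2 scale (SE 0.36, limma adjusted p = 0.0117). Plat, the tissue plasminogen activator, was higher by 0.15 (SE 0.06, limma adjusted p = 0.0495), a call lost in 8 of 14 alternative settings. Kcnk3, a potassium channel trafficked by p11, had a log2FC of 0.47 (SE 0.41, limma adjusted p = 0.364) and Ahnak, a scaffold bound by the complex, one of -0.08 (SE 0.11, limma adjusted p = 0.537), and neither passed. Htr4, another serotonin receptor, was at 0 in 5 samples and under 1 in the other.

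S100a4 (ENSMUSG00000001020), or metastasin, binds non-muscle myosin IIA (Myh9) and promotes the disassembly of its filaments, and is known from motile cells, fibroblasts and macrophages. Its normalized counts were 57.2, 52.6 and 55.2 in KE and 85.5, 109 and 87.6 in NT. The KE samples lay close together and all below the NT samples. The means were 55.0 ± 2.31 and 94.2 ± 13.2 (SD, n = 3), a ratio of 0.584. S100a4 fell by 0.76 on the log2 scale (SE 0.18, 95% interval -1.15 to -0.37, limma adjusted p = 0.00435). Its partner Myh9 was lower by 0.17 (log2FC -0.17, SE 0.06, limma adjusted p = 0.0467), a call lost in 7 of 14 alternative settings.

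S100a4 is known in macrophages and fibroblasts, and the lists for these cells are given beside it. The microglia and macrophage transcripts fell in all 18 listed genes, as given above, beside 26.0% of all genes called lower, among them C1qa (log2FC -3.12), Cx3cr1 (-3.97) and Csf1r (-3.46). Of 9 tested fibroblast, mural and endothelial genes 4 fell and 2 rose (median log2FC -0.49), beside 26.0% and 25.3% of all genes. The summed levels of this list were 2708 to 2837 in KE and 3321 to 4529 in NT. Within these sums Acta2, named after its values were seen, was at 632 to 679 in KE and 1174 to 2074 in NT. The defining gene Dcn fell by 0.65 while Col1a1 (-0.25) and Pdgfrb (-0.21) did not pass. The fibroblast genes of this list went both ways, since Lum (0.39) and Col1a2 (0.37) rose and Col3a1 (-0.59) fell. Lum, Col1a2 and Col3a1 were named after their values were seen, and the groups overlapped for Lum and Col3a1. The part of these cells in the S100a4 value was not tested.

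S100a4 and S100a6 lie close together. Both lie on the plus strand of mouse chromosome 3 (GRCm39, GENCODE annotation), S100a4 at chr3:90511074-90513354 and S100a6 at chr3:90520140-90535843, with 6785 bases and the silent S100a5 between them and opposite signs of change. Their promoters are shown because these genes, so close together, moved in opposite directions (RefSeq, GRCm38.p6, 250 bases before to 50 after the start, plus strand, 5′ to 3′, at chr3:90603520-90603819 and chr3:90612644-90612943). Capitals mark a TATAAA on the gene's strand, 31 bases before the start of S100a4, and a match on the other strand to a loose NF-kappaB motif (GGGA, then 4 bases of any kind, then CC), 11 bases before it.
S100a4: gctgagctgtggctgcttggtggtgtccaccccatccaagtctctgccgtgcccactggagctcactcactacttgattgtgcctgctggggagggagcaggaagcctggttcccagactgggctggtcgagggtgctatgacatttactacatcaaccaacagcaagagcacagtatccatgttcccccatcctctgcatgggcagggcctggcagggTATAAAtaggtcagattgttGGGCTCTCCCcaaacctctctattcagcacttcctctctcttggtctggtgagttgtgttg
S100a6: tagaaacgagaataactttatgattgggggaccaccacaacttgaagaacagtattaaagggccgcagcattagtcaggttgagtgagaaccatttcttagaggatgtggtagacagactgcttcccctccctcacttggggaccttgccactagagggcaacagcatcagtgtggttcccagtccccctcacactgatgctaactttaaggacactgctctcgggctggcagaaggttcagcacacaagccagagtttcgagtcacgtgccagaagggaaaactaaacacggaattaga
The S100a6 window held no match to any of the motifs searched. TATAAA was present in 8.32% of 32851 mouse promoters of the same length and the loose NF-kappaB motif, on either strand, in 20.7%, so either match is a description of this window only.

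S100a11 (ENSMUSG00000027907), or calgizzarin, binds annexin A1 and annexin A2 and takes part in membrane repair and growth control. The samples gave 3296, 3376 and 2933 normalized counts in KE and 3009, 3768 and 3590 in NT, and the groups overlapped. The means were 3202 ± 236 and 3456 ± 397 (SD, n = 3), and the log2FC of -0.11 (SE 0.09, 95% interval -0.30 to 0.09, limma adjusted p = 0.333) did not pass. Anxa1, its partner and a mediator of glucocorticoid action, was at 1057, 1013 and 1073 in KE and 621, 878 and 560 in NT, and rose by 0.64 (SE 0.14, limma adjusted p = 0.00264). Anxa6, a membrane-organizing annexin bound by several S100 proteins, was at 17389, 16922 and 16665 in KE and 7456, 7893 and 7549 in NT, and rose by 1.15 (SE 0.05, limma adjusted p = 3.02e-08). Annexins A1, A2 and A6 thus rose while S100a11 did not pass and annexin A11 did not pass.

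The S100a11 promoter is shown because this gene had the highest level of the family per kb of the union of annotated exons (chr3:93520246-93520545, GRCm38.p6, plus strand, RefSeq). By the length of the canonical transcript it came at rank 3 in both groups. Capitals mark, from left to right, TGANTCA (the AP-1 motif, which reads the same on both strands, N being any base) 136 bases before the start, the loose NF-kappaB motif 87 bases before it and a further TGANTCA 38 bases before it.
S100a11: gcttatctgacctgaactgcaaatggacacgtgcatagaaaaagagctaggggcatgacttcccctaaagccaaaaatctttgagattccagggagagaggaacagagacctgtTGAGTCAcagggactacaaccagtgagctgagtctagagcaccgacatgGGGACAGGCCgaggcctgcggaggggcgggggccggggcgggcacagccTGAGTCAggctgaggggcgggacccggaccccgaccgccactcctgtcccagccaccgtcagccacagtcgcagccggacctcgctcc
TGANTCA was present in 7.81% of all promoters of this length. Among the 9 S100 genes with a RefSeq promoter it was found also in the second promoter of S100a16, 192 bases before the start. S100a10 had no promoter entry. The other motifs searched on both strands, the interferon response motif (GAAA, then 2 bases of any kind, then GAAA, present in 3.44% of all promoters) and GGGAAANCC (a narrower NF-kappaB motif, 1.74%), were found in none of the 10 S100 promoters.

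S100a1 (ENSMUSG00000044080) regulates calcium release channels and pumps in muscle and is also made in brain. It was listed at 1594, 1693 and 1362 normalized counts in KE and at 1426, 1483 and 1495 in NT. KE held both the highest and the lowest sample, so the groups overlapped. The means were 1550 ± 170 and 1468 ± 37.3 (SD, n = 3), with a log2FC of 0.07 (SE 0.08, 95% interval -0.11 to 0.25, limma adjusted p = 0.486).

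S100a13 (ENSMUSG00000042312) helps export fibroblast growth factor 1 (Fgf1), which lacks a signal peptide, in a complex with synaptotagmin 1 (Syt1). Its level was 1199, 1108 and 1075 normalized counts in KE and 1067, 1084 and 1024 in NT, with the top NT sample inside the KE range. The means were 1127 ± 63.9 and 1058 ± 31.3 (SD, n = 3), with a log2FC of 0.09 (SE 0.07, 95% interval -0.06 to 0.24, limma adjusted p = 0.305). Its cargo Fgf1 was at 3174, 3203 and 3354 in KE and 1638, 1759 and 1786 in NT, with no overlap. Fgf1 rose by 0.91 (SE 0.06, limma adjusted p = 4.4e-07), and Syt1, at 32.1, 23.8 and 30.0 in KE and 21.8, 19.7 and 18.2 in NT, did not pass (log2FC 0.50, SE 0.27, limma adjusted p = 0.146).

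S100a1 lies inside S100a13, which also overlaps Chtop, on the opposite strand (chr3:90418340-90421848, minus, and chr3:90416091-90431912, plus, GRCm39). The library kit marks strand, but the strand setting used in counting is not given in the sources used here, so each of these values may hold reads of the other gene. Their RefSeq starts face away from each other, and the 300-base windows around them share 204 bases (GRCm38.p6, S100a13 at chr3:90514185-90514484 on the plus strand and S100a1 at chr3:90514281-90514580 on the minus strand). The S100a13 window is shown with the shared bases in capitals, since these bases lie in the windows of both genes.
S100a13: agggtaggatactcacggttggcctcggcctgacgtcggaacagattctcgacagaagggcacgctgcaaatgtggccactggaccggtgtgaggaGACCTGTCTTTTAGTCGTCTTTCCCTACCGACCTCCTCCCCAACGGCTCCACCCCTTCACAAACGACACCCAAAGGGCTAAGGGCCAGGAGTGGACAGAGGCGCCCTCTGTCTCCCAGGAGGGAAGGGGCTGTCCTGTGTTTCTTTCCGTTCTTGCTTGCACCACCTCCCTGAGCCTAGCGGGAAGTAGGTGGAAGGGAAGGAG
Neither window held any of the motifs searched. Neither gene passed the test, and their log2FC values of 0.07 and 0.09 were close.

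S100a16 (ENSMUSG00000074457) is a broadly expressed member found in many tissues, astrocytes among them. KE replicates 1 to 3 had 2926, 3273 and 2801 normalized counts and NT had 2812, 2785 and 2776. The NT samples were nearly equal, and the lowest KE sample fell among them. The means were 3000 ± 244 and 2791 ± 18.9 (SD, n = 3), with a log2FC of 0.10 (SE 0.07, 95% interval -0.04 to 0.25, limma adjusted p = 0.221).

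S100b (ENSMUSG00000033208), the member most used as an astrocyte marker, is released by astrocytes and binds RAGE outside the cell and the kinase Stk38 and the actin capping protein Capza1 inside it. It was low in these cultures, at 22.6, 18.8 and 11.8 normalized counts in KE and 26.7, 21.7 and 31.5 in NT. The groups overlapped by 1 sample on each side. The means were 17.7 ± 5.48 and 26.7 ± 4.91 (SD, n = 3), and the log2FC of -0.60 (SE 0.32, 95% interval -1.31 to 0.12, limma adjusted p = 0.147) did not pass, with an interval that covers both no change and a fall of over 1 log2 unit. Of its partners, Capza1 fell by 0.25 (SE 0.06, limma adjusted p = 0.0028), with normalized counts of 6415 ± 271 in KE and 7642 ± 228 in NT (SD, n = 3). Stk38 had a log2FC of -0.08 (SE 0.05, limma adjusted p = 0.253) and did not pass.

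S100b did not pass, and the lists of the lineages that make it are given beside it. Of 10 tested genes of the oligodendrocyte lineage 8 fell and 1 rose, beside 26.0% of all genes called lower and 25.3% called higher. Mobp, named after its values were seen, is 1 of the 8 but passed the filter through NT alone (means of 4.25 in KE and 22.8 in NT), so its fall counts for nothing here. The list had summed levels of 29795 to 34870 in KE and 38192 to 38430 in NT, and Olig2 and Mbp fell by 0.55 and 1.89. Sox10 fell by 0.50, with overlapping groups and a call lost in 5 of 14 alternative settings (log2FC -0.32 without KE replicate 1). Of 13 tested astrocyte genes 9 rose and 2 fell, beside the same shares of all genes, with summed levels of 220743 to 228283 in KE and 161147 to 171230 in NT. Aldh1l1 rose by 0.72, Gja1 fell by 0.46 and Aqp4 did not pass. Gfap, named after its values were seen, rose by 0.87. The part of either lineage in the S100b values was not tested.

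S100a8 (ENSMUSG00000056054) was listed at 0 in all 3 KE samples and at 10.9, 8.22 and 19.2 in NT. Every NT sample was above 0, and no ratio is given because KE is listed at 0. Its mean over the 6 samples was 6.38, under the filter, and an exact permutation test, two-sided, gave p = 0.1, the smallest possible with 3 samples against 3. Its values are therefore given as a description. S100a9 (ENSMUSG00000056071), with which S100a8 forms calprotectin, was at 0 in all 6 samples, so the transcript of its partner subunit was not detected at this depth.

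The promoter of S100a8 is shown because this was the 1 member seen in a single group (chr3:90668821-90669120, GRCm38.p6, plus strand, RefSeq). Capitals mark TATAAA, 30 bases before the start.
S100a8: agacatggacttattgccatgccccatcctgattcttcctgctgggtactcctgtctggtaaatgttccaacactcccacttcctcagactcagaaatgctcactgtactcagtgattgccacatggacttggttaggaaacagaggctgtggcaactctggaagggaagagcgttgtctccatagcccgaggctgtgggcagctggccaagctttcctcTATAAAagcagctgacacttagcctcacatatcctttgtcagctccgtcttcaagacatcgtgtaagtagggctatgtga
TATAAA on the gene's strand was found in 3 of the 10 S100 promoters, those of S100a4, S100a8 and S100a9, in the last of which it began at the annotated start itself.

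Of the myeloid lists, that of microglia and macrophages was lower in KE and the others were thinly measured. Microglia and macrophage genes fell in 18 of 18, beside 26.0% of all genes called lower (C1qa was at 624, 1165 and 699 in KE and 7583, 6843 and 6524 in NT). Of 10 neutrophil genes 5 were at 0 in all samples, the defining Ly6g, Mpo and Elane among them, and 2 passed the filter, so the list gives no count of calls. Its summed level was 28.9 to 34.3 in KE and 204 to 244 in NT, of which Csf3r, named after its values were seen, made up 182 to 211 in NT. Of 5 monocyte genes the defining Ccr2 was at 0, 2.29 and 0 in KE and 3.63, 5.64 and 1.04 in NT, Ly6c2 was under 1 throughout, and Plac8 was at 17.1, 21.2 and 21.7 in KE and 7.93, 4.16 and 2.88 in NT, so it passed the filter through KE alone. The summed levels of this list overlapped, at 47.0 to 60.0 in KE and 40.3 to 54.3 in NT. The part of myeloid cells in the S100a8 value was not tested.

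**Figure D3:**
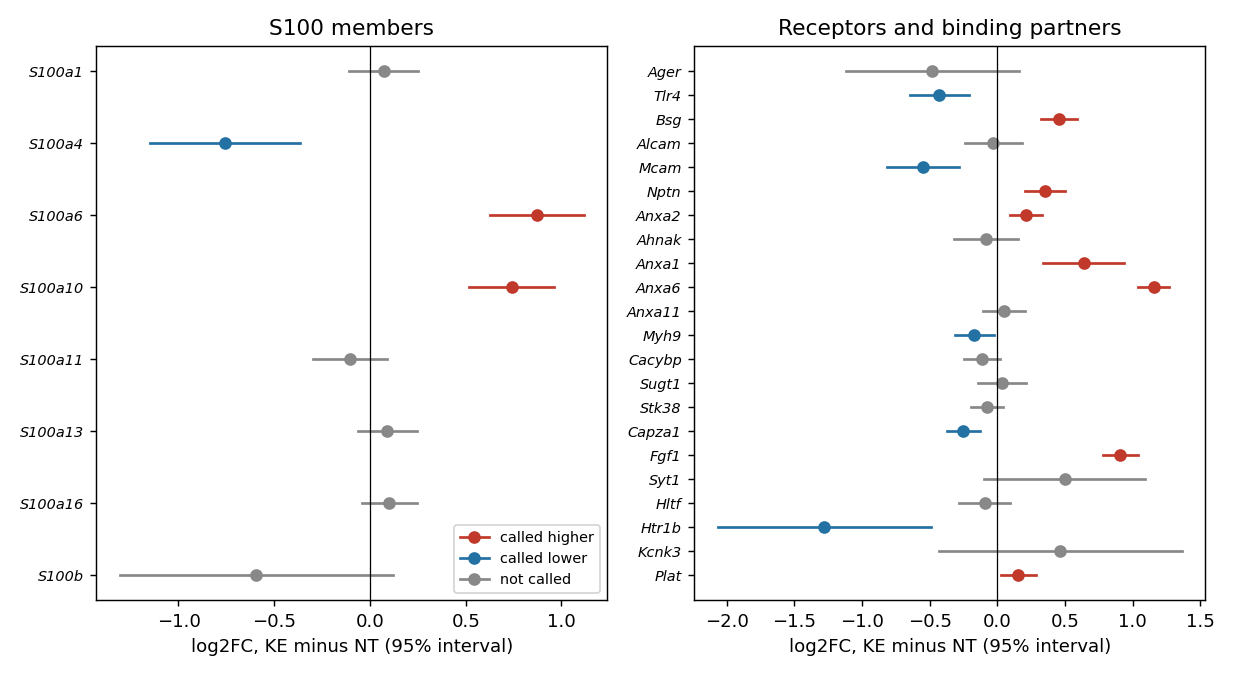
Log2FC (x axes, KE minus NT) with 95% intervals for the 8 S100 genes tested (left) and for the 22 receptors and binding partners tested (right), coloured by call. S100a6 and S100a10 lie right of 0, S100a4 lies left of it, and the intervals of the other 5 S100 genes cross 0.

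The cell-surface receptors of released S100 proteins were each measured above the filter. Of 6 receptors 2 rose, 2 fell and 2 did not pass, with a median log2FC of -0.23. Of all genes tested 25.3% were called higher and 26.0% lower. Bsg (basigin, a receptor of S100a9) rose by 0.45 (9759 ± 264 in NT to 13372 ± 858 in KE, SD, n = 3, limma adjusted p = 9.42e-05) and Nptn (neuroplastin, a receptor of S100a8) by 0.35 (limma adjusted p = 0.00132). Tlr4, through which calprotectin signals in myeloid cells, was at 367, 356 and 355 in KE and 527, 498 and 434 in NT and fell by 0.43 (limma adjusted p = 0.00373). The microglia and macrophage genes given above fell in 18 of 18, beside 26.0% of all genes called lower. The part of these cells in the Tlr4 value was not tested.

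Mcam, an adhesion molecule that binds calprotectin, fell by 0.55 (limma adjusted p = 0.0031), and Alcam, another adhesion molecule of this kind, had a log2FC of -0.03 (limma adjusted p = 0.806). Ager, which encodes RAGE, the receptor of S100b and several relatives, was low, at 18.0, 15.6 and 16.2 in KE and 27.6, 24.6 and 19.2 in NT. Every KE value of Ager was below every NT value, but the test did not call it (log2FC -0.48, SE 0.29, limma adjusted p = 0.189). The receptors called were thus not all of 1 sign.

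Of 17 binding partners 16 were tested, of which 5 rose, 3 fell and 8 did not pass, with a median log2FC of 0.04. The 5 that rose were Anxa6, Fgf1, Anxa1, Anxa2 and Plat, and the 3 that fell were Htr1b, Capza1 and Myh9. The 4 of 6 receptors and 8 of 16 partners called stand beside 51.3% of all genes.

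Levels were compared between members per length of exon (normalized counts per kb of the union of annotated exons, group means). S100a11 was first, at 1198 in KE and 1293 in NT, followed by S100a16 at 597 and 555 and S100a1 at 535 and 507. S100a16 and S100a1 overlapped in KE and were apart in NT. In NT the order went on with S100a13 (225), S100a6 (192), S100a4 (104), S100a10 (52.4), S100b (13.4) and S100a8 (13), each apart from the one before it except S100a8, which overlapped S100b.

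In KE the order below the top 3 was S100a6 (349), S100a13 (239), S100a10 (87.7), S100a4 (60.6) and S100b (8.86), each apart from the one before. S100a10 stood above S100a4 in KE and below it in NT with each of the 3 lengths tried, which restates on the scale of levels the differences given above. S100a6 stood above S100a13 in KE with each length, and in NT below it only with the exon union (192 against 225), being above it by the longest transcript (342 against 238) and by the canonical transcript (578 against 240). On this scale S100b was far below the astrocyte genes Aldh1l1 (2489 in KE, 1512 in NT) and Gfap (5517 and 3028). The order depends on the length used: by the canonical transcript S100a16 led in both groups (2593 in KE, 2412 in NT), followed by S100a1 (1874 and 1775) and S100a11 (1375 and 1484).

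The summed level of the 10 genes per kb ran from 2738 to 3214 over the 6 samples, and KE and NT overlapped. Within that sum the share of S100a6 was 10.4% to 11.9% in KE and 5.83% to 6.99% in NT. The share of S100a11 was 38.5% to 39.3% in KE and 41.1% to 45.4% in NT. These shares depend on each other, since they add up to the whole. They were taken with the exon union as length and, like the order above, depend on that choice.

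**Figure D4:**
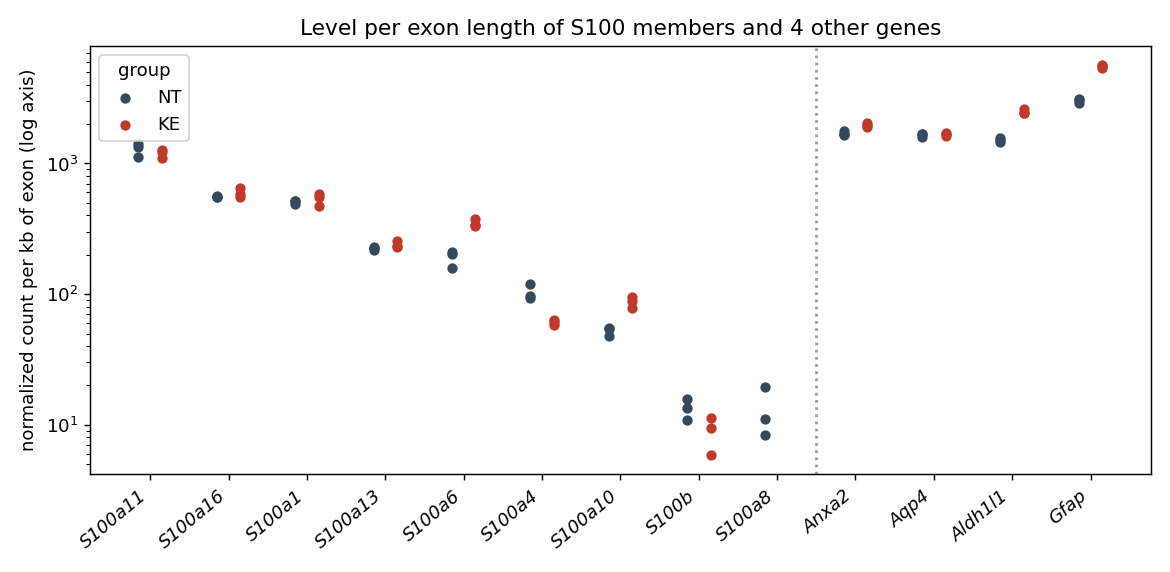
Normalized counts per kb of exon (y axis, log scale) of 9 S100 genes and of Anxa2, Aqp4, Aldh1l1 and Gfap in each NT and KE sample (points). By this length, the union of annotated exons, S100a11 leads the S100 genes in both groups and S100b and S100a8 are at the bottom. The KE points of S100a8, at 0, cannot be drawn on a log axis.

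The spread between replicates differed among the members. Between KE samples the coefficient of variation ran from 4.21% for S100a4 to 31% for S100b, and between NT samples from 0.676% for S100a16 to 18.4% for S100b. S100b, the least abundant gene tested, was thus the least precise in both groups. KE replicate 3 was the lowest KE sample for 5 of the 8 genes tested and the highest for none, and KE replicate 1 the highest for 5 and the lowest for none.

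The genes sit mostly in 1 stretch of the genome. Of the 10, 9 lie on chromosome 3 within 3058420 bases (GRCm39), and S100b lies on chromosome 10 (chr10:76085090-76097159, plus strand), overlapping Dip2a. Within the stretch, S100a13, S100a1, S100a16 (chr3:90444172-90450462), S100a4, S100a6, S100a8 (chr3:90567118-90578128) and S100a9 (chr3:90599931-90603071, minus) form a close group. S100a11 (chr3:93414382-93435293) and S100a10 (chr3:93462213-93474510) lie 2811310 bases further on and 26919 bases apart from each other. Both parts held a gene that rose, S100a6 in the first and S100a10 in the second, beside genes that did not pass. The first part also held S100a4, which fell, and S100a8 and S100a9, which were not tested.

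Further S100 genes of the table were close to silent. Of 7 others listed (S100a3, S100a5, S100a7a, S100a7l2, S100a14, S100g and S100z) none reached the filter and S100a5 and S100a7l2 were at 0 in all samples. Their summed levels were 2.97 to 13.3 normalized counts in KE and 2.18 to 6.98 in NT, which overlap. S100a2, which is in the table but not in that list and was looked up after the data were seen, was at 5.31, 0 and 1.26 in KE and 0.869, 0 and 1.33 in NT. S100a3 and S100a5, which lie on either side of S100a4, were at 4.20, 0 and 0.244 in KE and 4.49, 3.89 and 1.21 in NT for the first and at 0 for the second.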

How the data were processed

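The authors trimmed reads of TruSeq stranded mRNA libraries with Trim Galore, aligned them with STAR, quantified genes with Salmon and deposited a signal per gene and sample, read counts divided by DESeq2 size factors. The study's methods name GRCm39 and Gencode, whereas the submitters' processing notes name a human build, and the gene IDs are of mouse. The methods mention batch adjustment without naming batches, so none was modelled. Whole reads could not be recovered, hence no counting intervals are given.

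Log2(value + 1) was fitted with limma 3.58.1 (R 4.3.3, variance trend, KE against NT, two-sided) over 15280 genes with a mean of at least 10, with Benjamini-Hochberg adjustment and a threshold of 0.05. Log2 fold changes are on this scale and understate changes of low genes. The fit was tested on simulated data. Every member, receptor, partner and other S100 gene could be named, and of each marker list its first 3 genes, with other names said to be chosen after their values were seen. The family and the lists were chosen with earlier results of these data known, and its rows were then taken by gene name. Promoters came from RefSeq (GRCm38.p6, starts of 27025 genes), exon lengths from GENCODE (GRCm39). The TATAAA search and the canonical length were added after the data were seen. Alternatives changed the pseudocount, filter, scaling, variance trend, replicate block and the samples left out, and gene length.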

Additional observations from a re-analysis of the deposited data

How the results depend on the processing

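Each of the 8 S100 genes tested kept its direction and its side of the threshold in every alternative that could be fitted (14, and 13 for S100b, which has a mean under 50). S100a6 ranged from 0.75 to 0.95 on the log2 scale (limma adjusted p 1.5e-05 to 0.00268), S100a10 from 0.68 to 0.81 (3.7e-05 to 0.00189), S100a4 from -0.82 to -0.61 (0.00276 to 0.0226) and S100b from -0.78 to -0.34 (0.1 to 0.405). With no filter on low values 2 S100 genes were called lower in place of 1, the second being S100a8, which enters that fit only through NT, the group where it is detected, and is no support for a change. Leaving out 1 sample at a time gave 6792 to 7212 called genes in place of 7844. The replicate block gave 8046, with the calls of the S100 genes unchanged. Deviations from the group means correlated at 0.0589 to 0.0664 for samples with the same number and at -0.0499 to -0.0105 for different numbers. These values do not decide whether the numbers mark pairs. The sources do not say so, and the main fit took none. Over 651 comparisons of single named genes 624 kept their call, 20 lost it (Myh9, Plat and Sox10) and 7 gained it (Ager, Syt1, Snap25, Pdgfrb and Foxj1). Calls that reversed direction numbered 0. The uncalled Alcam, Sugt1, Aqp4 and Col1a1 changed sign in some settings without being called. The median log2FC of all genes was 0.0288 after quantile normalization and -0.00847 after 75th percentile scaling. With the longest transcript as length S100a6 came at rank 3 and S100a1 at rank 4 in KE. S100b and Ager, both low, had log2FC standard errors of 0.32 and 0.29, and S100a8 was too low to be tested.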
